A study of Mus musculus with 21 samples.

Results

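The arrays compared are those of CD24lo cells with NICD and of untreated CD24lo cells, 2 arrays per group and 4 of the 21 arrays in the series, taken by their sample titles. Per the labels, all sorted cells were TdTomato-positive Mist1+ cells of mouse small intestine, divided by flow cytometry at the surface protein CD24 into a low (CD24lo) and a high (CD24hi) fraction. The gene Bhlha15 encodes Mist1, a factor that matures secretory cells. The CD24lo groups were untreated, NICD, Lgr5-ablated, irradiated with 10 Gy and given doxorubicin, each with 2 arrays, and the same 5 conditions exist for CD24hi cells. The labels do not say how or for how long NICD was expressed, which receptor it comes from, which promoter drives it or the TdTomato, or the strain, age and sex of the mice. Nor do they state whether replicates are from different animals, and p-values measure only the spread between these samples.

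NICD is the usual name of the Notch intracellular domain. When a Notch receptor binds a ligand on a neighbouring cell, γ-secretase cuts it and frees this domain, which enters the nucleus and with Rbpj and a Mastermind protein switches on genes such as those of the Hes and Hey families and Nrarp. In the crypts of the intestine Notch signalling keeps stem and progenitor cells from the secretory fate, largely by repressing Atoh1, the factor that secretory cells need, while Neurog3, Insm1 and Neurod1 act in the enteroendocrine branch.

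Levels are given as log2(signal + 16) of one probe set per gene, a scale with its floor at 4 on which folds of dim genes are understated. Differences are NICD minus untreated ± SE from limma fitted to the 20 sorted arrays (n = 2 arrays per group), and a gene passed the test, or was called, where the adjusted p was below 0.05. Cd24a, the gene of the sorted surface protein, was at 13.12 and 13.17 in untreated and at 13.13 and 13.27 in NICD arrays of CD24lo cells, and at 14.17 to 14.73 in the same conditions of CD24hi cells. Bhlha15 was at 9.17 and 9.18 in untreated and at 8.96 and 8.78 in NICD arrays. Its difference was -0.30 ± 0.26 (adjusted p = 0.433), while a second probe set of the gene gave -1.12 and passed. The goblet gene Muc2 and the Paneth gene Lyz1 lay between 13.76 and 14.72 in these 4 arrays. Sex-linked genes separated the untreated arrays. Xist, expressed from the inactive X chromosome, was at 5.76 and 13.50 in untreated replicates 1 and 2 and at 7.50 and 7.78 with NICD. Kdm5d, on the Y chromosome, was at 10.23 and 4.18 in untreated replicates 1 and 2 and at 10.74 and 10.99 with NICD. Both NICD arrays were thus like untreated replicate 1 and unlike untreated replicate 2 in these genes, and the fit without untreated replicate 2 compares arrays that are alike in them.

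NICD arrays differed from untreated arrays in 1709 of 11854 genes, 14.4% of those tested, with 794 higher (6.7%) and 915 lower (7.72%). Of the 794 higher genes, 738 passed the filter on low signal without the CD24lo NICD arrays. The rest entered the test only through those arrays. The median difference over all genes was 0.04. The arrays of the 2 groups did not overlap in 7409 genes (62.5%), higher in 32.9% and lower in 29.6%, all 1709 called genes among them. NICD replicate 2 lay farther from the untreated mean than NICD replicate 1 in 1491 of the called genes (87.2%) and in 72.3% of all genes. Without NICD replicate 2 limma called 4 genes, and 1661 had an unadjusted p below 0.05. These were Gkn1, Pgc and Pnliprp1, which rose, and Erdr1, which fell, and each of these 4 also kept its call without any other of the 4 arrays. All 1709 genes had the same sign without NICD replicate 2, and their median size was 0.77 there against 0.98 with all arrays, with a median adjusted p of 0.289. Without untreated replicate 1, 383 genes were called and 347 of the 1709 kept their call. Without untreated replicate 2 these numbers were 581 and 491, and without NICD replicate 1 they were 1741 and 1314. A fit to the 4 compared arrays alone, with 2 residual degrees of freedom, called 861 genes, 464 higher and 397 lower. Every call in this comparison that is named below, other than those of the 4 genes, was thus lost without NICD replicate 2, and its adjusted p there is given by range.

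**Figure D1:**
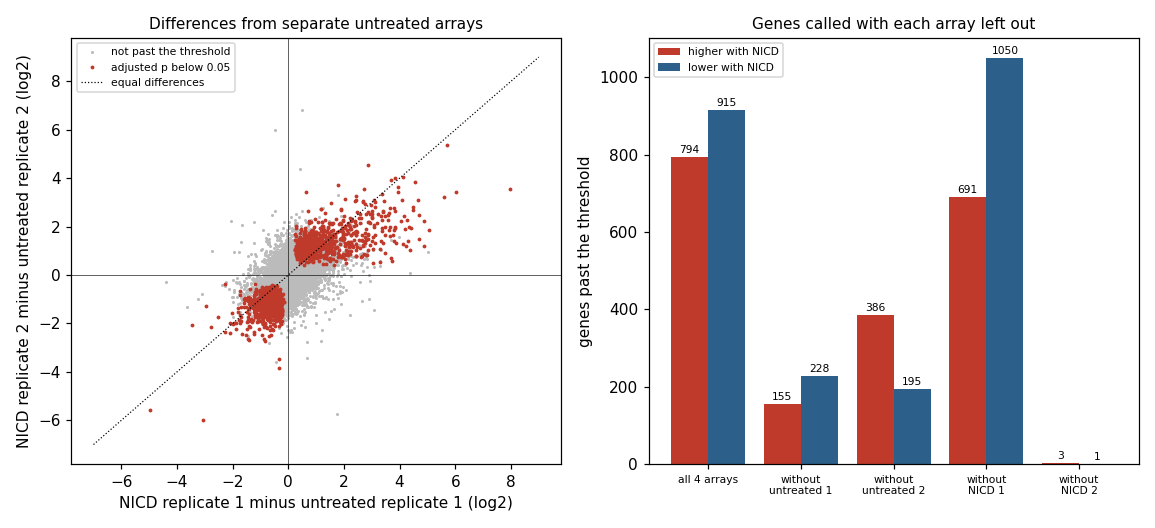
Left, each gene's NICD replicate 1 minus untreated replicate 1 (x axis, log2) against NICD replicate 2 minus untreated replicate 2 (y axis, log2), a pairing by number made so that no array is used on both axes, with genes past the threshold in red and the dotted line marking equal differences. Right, genes past the threshold (y axis) higher or lower with NICD, with all 4 arrays (794 and 915) and with each array left out, down to 3 and 1 without NICD replicate 2.

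Of the Notch target genes, 3 of 11 tested (16 listed) rose, against 6.7% of all genes, none fell, and the median difference was 0.41. Nrarp, whose protein binds NICD and dampens the signal, was at 10.22 and 10.00 in untreated and at 11.74 and 12.13 in NICD arrays. Heyl, a transcriptional repressor of the Hey family, was at 5.38 and 6.24 untreated and at 8.13 and 7.98 with NICD. Notch3, a receptor gene that is itself a Notch target, was at 6.02 and 6.40 untreated and at 8.23 and 8.40 with NICD. In each of the 3 genes both NICD arrays stood above both untreated arrays by more than the arrays of either group differed. The differences were 1.83 ± 0.29 for Nrarp (3.55-fold, adjusted p = 0.00473), 2.25 ± 0.43 for Heyl (adjusted p = 0.00959) and 2.10 ± 0.37 for Notch3 (adjusted p = 0.00621). A second probe set of Nrarp gave 1.34 and one of Heyl 2.26, both past the threshold. In a fit without untreated replicate 1 Nrarp and Notch3 kept their calls and Heyl had an adjusted p of 0.0543, and without untreated replicate 2 or NICD replicate 1 all 3 were called. Without NICD replicate 2 the adjusted p was 0.138 for each.

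Hes1, the Notch effector that represses Atoh1, was at 7.30 and 6.98 untreated and at 7.09 and 7.38 with NICD. These arrays overlapped, and the difference was 0.10 ± 0.34 (adjusted p = 0.864). Olfm4, a crypt stem cell gene controlled by Notch, was at 13.43 and 13.22 untreated and at 13.57 and 13.92 with NICD, a difference of 0.42 ± 0.31 that did not pass. The remaining targets did not pass either, with Dtx3 at 0.86 ± 0.31 (adjusted p = 0.0725), Myc at 0.15 and Ccnd1, a cyclin gene, at 0.41, although 1 of the other probe sets of Ccnd1 gave 0.78 and passed. Hes3, Hes5, Hey1, Hey2 and Dtx1 were below the filter on low signal.

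Among Notch receptors and ligands, 2 of 10 tested rose, against 6.7% of all genes, and none fell. The median was 0.43, and 1 was called with quantile normalization. The 2 genes that rose were Notch3, given above, and Dner, which encodes a transmembrane protein with EGF-like repeats. Dner was at 5.96 and 6.19 untreated and at 7.56 and 8.35 with NICD, a difference of 1.89 ± 0.53 (adjusted p = 0.0307). Its second probe set gave 0.90 and did not pass. The call held without NICD replicate 1, and the adjusted p was 0.109 and 0.0851 without untreated replicates 1 and 2 and 0.336 without NICD replicate 2. Notch1, a main receptor of the crypt together with Notch2, was at 8.35 and 9.05 untreated and at 9.07 and 8.71 with NICD. These arrays overlapped, and the difference of 0.19 ± 0.30 does not check the labels, since the files used here do not say whether the probe set lies in the expressed domain. Notch2 differed by 0.27 ± 0.31. The ligand genes Dll1 and Dll4 differed by 0.52 ± 0.24 and -0.59 ± 0.25 and Jag1 by -0.44 ± 0.26, none past the threshold.

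**Figure D2:**
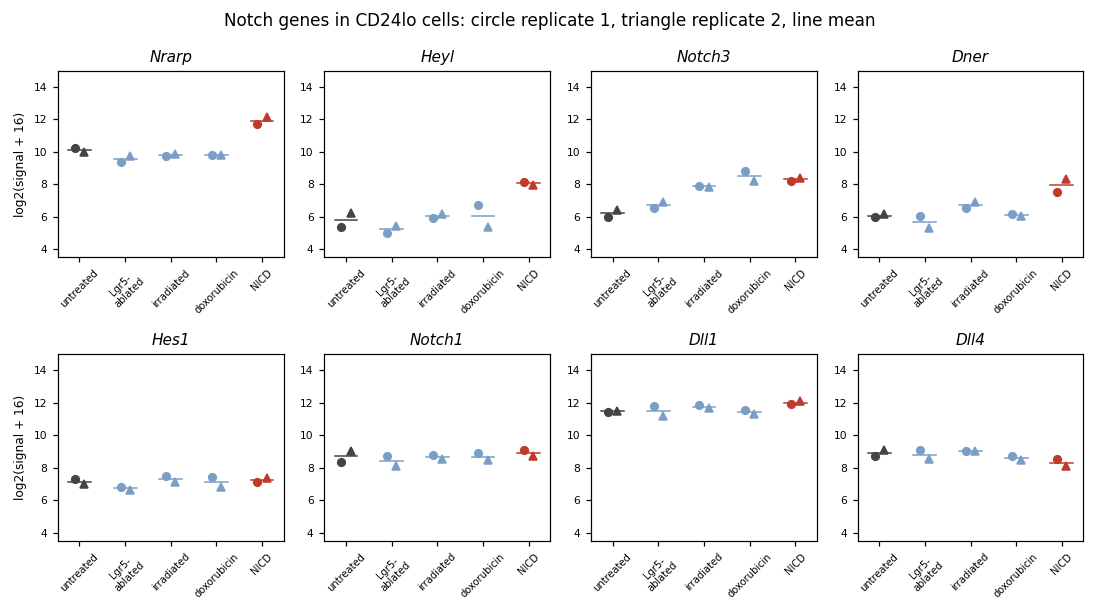
Level (log2(signal + 16), y axis) of 8 Notch genes in the 2 arrays of each CD24lo condition (x axis), with circles for replicate 1, triangles for replicate 2 and lines for means. The NICD arrays of Nrarp, at 11.74 and 12.13, and of Heyl, at 8.13 and 7.98, lie above all other CD24lo arrays, while those of Hes1 and Notch1 overlap the untreated ones.

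In the list of Notch processing and coactivator genes none of 21 tested rose and 2 fell, against 7.72% of all genes. That count is too small to be a result about the list. Rfng, a glycosyltransferase that modifies Notch, was at 10.32 and 11.05 untreated and at 9.76 and 9.43 with NICD, a difference of -1.09 ± 0.35 (adjusted p = 0.0452). Aph1a, a γ-secretase subunit, was at 10.70 and 10.73 untreated and at 10.17 and 9.97 with NICD, a difference of -0.65 ± 0.18 (adjusted p = 0.0302). The groups did not overlap in either gene, but other probe sets of both, at -0.58 for Rfng and at -0.21 and -0.05 for Aph1a, did not pass. Neither call held without untreated replicate 1 or 2, where the adjusted p ran from 0.0543 to 0.277. Without NICD replicate 1 Aph1a was called, and without NICD replicate 2 the adjusted p was 0.306 to 0.356. Mib1, a ubiquitin ligase that activates Notch ligands, differed by 0.49 ± 0.17 and did not pass, while its other probe sets gave 1.33, past the threshold, and 0.42. Rbpj, the DNA-binding partner of NICD, differed by 0.60 ± 0.27 and Adam10, the protease that makes the first cut, by 0.74 ± 0.29, both short of the threshold.

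Of the secretory transcription factors, 2 of 22 tested rose and 2 fell, shares near the 6.7% and 7.72% of all genes, so that the counts show nothing about the list. Both that rose belong to the enteroendocrine branch. Neurod1 was at 9.01 and 9.38 untreated and at 11.22 and 11.75 with NICD. Insm1 was at 8.05 and 8.20 untreated and at 10.31 and 10.44 with NICD. The groups did not overlap in either gene, and the differences were 2.29 ± 0.51 (adjusted p = 0.0143) and 2.25 ± 0.45 (adjusted p = 0.0102), with second probe sets at 2.03 and 2.14. Creb3l4, a membrane-bound transcription factor, fell by 1.19 ± 0.27 on the log2 scale and Hes6, an inhibitor of Hes1, by 0.94 ± 0.29. A second probe set of Hes6 gave -0.59 and did not pass. Atoh1 was at 12.61 and 12.63 untreated and at 12.85 and 12.90 with NICD. Its difference of 0.25 ± 0.20 did not pass (adjusted p = 0.397), and neither did those of Neurog3 (0.48 ± 0.50), Gfi1 (0.03 ± 0.23) and Spdef (-0.73 ± 0.26). In a fit without untreated replicate 1 Insm1 and Creb3l4 kept their calls, without untreated replicate 2 Insm1 and Neurod1, without NICD replicate 1 all 4 genes, and without NICD replicate 2 none did (adjusted p 0.173 to 0.461).

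Enteroendocrine genes, which mark hormone-secreting cells, rose in 5 of 24 members, against 6.7% of all genes, and fell in none. Their median difference was 0.77 against 0.04 over all genes. Tph1, the rate-limiting enzyme of serotonin synthesis in the gut, was at 9.15 and 10.18 untreated and at 12.23 and 12.15 with NICD. Both NICD arrays were above both untreated arrays, a difference of 2.52 ± 0.65 (adjusted p = 0.0219). Resp18 rose by 1.97, Cpe, a carboxypeptidase of hormone processing, by 1.80, Bex2 by 1.63 and Tac1, the gene of substance P, by 1.40. Chga, a granule protein of enteroendocrine cells, was at 9.73 and 10.28 untreated and at 11.69 and 11.22 with NICD, but its difference of 1.45 ± 0.65 did not pass (adjusted p = 0.131). Of the listed hormone genes other than Tac1 none passed, among them Gcg at 0.46, Sct at -0.37, Cck at -0.47, Gip at -0.62 and Nts at -0.67. These lean to the negative side of a list in which 18 of 24 differences were positive. Sst, Pyy and Ghrl were also tested and did not pass. The 5 calls were all lost without untreated replicate 1 (adjusted p 0.0516 to 0.23) and without NICD replicate 2 (0.235 to 0.291). Tph1 kept its call without untreated replicate 2 and Cpe without NICD replicate 1.

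Enterochromaffin cells are the enteroendocrine cells that make serotonin. A list of 25 genes linked to them was drawn up after these values were seen, so its counts only describe. It shares Tph1, Tac1, Cpe, Chga, Chgb and Pcsk1 with the list above. Of 20 tested, 11 were higher, none was lower and the median was 1.37. Snap25, which drives vesicle fusion, was at 6.34 and 6.94 untreated and at 10.29 and 10.56 with NICD, a difference of 3.78 ± 0.62 (adjusted p = 0.00506), with a second probe set at 4.75. The irritant channel gene Trpa1 was at 6.91 and 7.80 untreated and at 10.49 and 10.30 with NICD. The orphan receptor gene Gpr6 was at 4.59 and 4.99 untreated and at 8.43 and 9.01 with NICD. All 3 genes had both NICD arrays more than 2 log2 units above the higher untreated array. Prnp was higher by 3.07, the sodium channel gene Scn3a by 2.76, the transcription factor gene Lmx1a by 2.18 and Slc18a1, a vesicular monoamine transporter, by 1.30. Of the 11 calls 4 held without untreated replicate 1, without untreated replicate 2 7, without NICD replicate 1 8 and without NICD replicate 2 none (adjusted p 0.112 to 0.351).

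Goblet cell genes fell in 4 of 21 members, against 7.72% of all genes, and rose in none, with a median of -0.43. These were Tpsg1, a tryptase (-0.94 ± 0.22), and Zg16 (-0.76 ± 0.21), Fcgbp (-0.68 ± 0.21) and Clca1 (-0.56 ± 0.18), which encode proteins of the mucus. Zg16 was at 14.31 and 14.71 untreated and at 13.77 and 13.73 with NICD, and its other probe sets gave -0.78 and -1.09. The groups did not overlap, and the untreated arrays differed more than the NICD arrays. A second probe set of Clca1 went the other way, at 0.84, past the threshold. Muc2, the main mucin, differed by -0.41 ± 0.26 and did not pass. Without untreated replicate 1 or 2 none of the 4 calls held (adjusted p 0.0515 to 0.235), without NICD replicate 1 only Tpsg1 did, and without NICD replicate 2 the range was 0.263 to 0.336.

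Of the Paneth cell genes 1 of 17 fell, a share below the 7.72% of all genes and so no result about the list. It was Habp2, a protease, which fell by 1.13 ± 0.34 on the log2 scale, with a second probe set at -0.24 that did not pass. With quantile normalization 3 Paneth genes were called lower and 1 higher. Lyz1, the lysozyme of Paneth cells, differed by -0.58 ± 0.28 (adjusted p = 0.158). The Habp2 call held without NICD replicate 1 and had an adjusted p of 0.112, 0.115 and 0.346 without untreated replicate 1, untreated replicate 2 and NICD replicate 2. Tuft cell genes rose in 3 of 14 members, against 6.7% of all genes. Fyb, an adaptor protein, was at 5.42 and 5.92 untreated and at 8.02 and 8.28 with NICD. Alox5ap, which serves leukotriene synthesis, was at 6.32 and 7.15 untreated and at 8.90 and 9.28 with NICD. The groups did not overlap in either gene, and the third, Hpgds, a prostaglandin D synthase, differed by 1.23 ± 0.38. Leukocytes also express these 3 genes. The defining tuft gene Dclk1 was at 5.32 and 5.28 untreated and at 5.52 and 6.19 with NICD and did not pass, and neither did Trpm5 (-0.18 ± 0.50) and Sh2d6 (0.22 ± 0.51). Without untreated replicate 1 Fyb alone kept its call, without untreated replicate 2 or NICD replicate 1 all 3 did, and without NICD replicate 2 the adjusted p was 0.164 to 0.402.

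Stem cell genes rose in 2 of 19 members, against 6.7% of all genes, and fell in none. This count is too small to be a result about the list, whose median was 0.50. Slc12a2, an ion cotransporter high in crypts, was at 12.40 and 12.28 untreated and at 13.25 and 13.55 with NICD, a difference of 1.06 ± 0.18 (adjusted p = 0.00537). Rgmb, a co-receptor for bone morphogenetic proteins, rose by 0.99 ± 0.27, and its other probe sets gave 0.22 to 1.31, of which only 1.31 passed. Lgr5, the marker of cycling crypt stem cells, was at 8.90 and 8.44 untreated and at 10.33 and 9.94 with NICD. Both NICD arrays were higher, but the difference of 1.46 ± 0.56 did not pass (adjusted p = 0.0851). Among Wnt targets 1 of 15 rose, a share no larger than the 6.7% of all genes and so no result about the list. It was the adhesion receptor gene Cd44 (1.46 ± 0.33), whose 2 other probe sets gave 0.99 and 0.36 and did not pass. Among reserve stem cell genes 1 of 6 rose, Clu, which encodes the chaperone clusterin and was at 4.45 and 4.65 untreated and at 8.26 and 7.41 with NICD (3.29 ± 0.71, adjusted p = 0.0119). Its other probe sets gave 1.51, 2.32 and 3.36, the last of them past the threshold. In the absence of untreated replicate 1 Slc12a2 alone of these 4 was called, without untreated replicate 2 Slc12a2 and Clu, without NICD replicate 1 all 4, and without NICD replicate 2 the adjusted p ran from 0.138 to 0.287.

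Of the proliferation genes, 3 of 24 were higher and 2 lower, against 6.7% and 7.72% of all genes. These counts are too small to be a result about the list. Ccne2, a cyclin gene of the entry into DNA replication, rose by 1.23 ± 0.32, and Mcm4 and Mcm3, which encode subunits of the replicative helicase, by 0.96 ± 0.26 and 0.91 ± 0.26. The probe sets of Mcm3 disagreed, since its 4 others gave -0.59 to -0.26 and did not pass. None of the other helicase genes listed was called higher. Mcm7 differed by -0.55 ± 0.33, with other probe sets at -1.24 (past the threshold), -0.61 and -0.42, and Mcm2 by 0.10 ± 0.27, with a second at -0.32. Birc5, a mitotic regulator, fell by 1.13 ± 0.32 and Cdk1, a kinase of mitotic entry, by 0.97 ± 0.31 on the log2 scale. Mki67, which marks cycling cells, was at 11.81 and 11.87 untreated and at 11.66 and 11.47 with NICD, and its difference of -0.27 ± 0.31 did not pass. None of the 5 genes was called by limma without untreated replicate 1 (adjusted p 0.0711 to 0.194), without untreated replicate 2 Ccne2 and Mcm3, without NICD replicate 1 all but Mcm4, and without NICD replicate 2 none (0.243 to 0.433).

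Enterocyte genes, which serve digestion and absorption, fell in 7 of 31 members, against 7.72% of all genes, and rose in none. All but 1 of the differences were negative, and the median was -0.81. Lct, which encodes lactase, was at 11.33 and 11.53 untreated and at 9.24 and 9.15 with NICD, a difference of -2.24 ± 0.48 (adjusted p = 0.0119). Anpep, the gene of aminopeptidase N, was at 12.43 and 12.29 untreated and at 10.74 and 10.40 with NICD, a difference of -1.79 ± 0.34 (adjusted p = 0.00959). Both NICD arrays of each gene were more than 1 log2 unit below both untreated arrays. Treh (trehalase) fell by 2.46 ± 0.66, Mep1b (a meprin subunit) by 1.84 ± 0.48, Apoa4 by 1.80 ± 0.47 and Apoa1 by 1.57 ± 0.32 on the log2 scale, both of the last being apolipoproteins. A second probe set of Apoa4 gave -1.20 and did not pass, while the others of Apoa1 passed. In bulk RNA fewer cells of a type and less RNA per cell cannot be told apart. Lct, Apoa1 and Anpep kept their calls without untreated replicate 1, without untreated replicate 2 Apoa1 and Anpep, without NICD replicate 1 5 of the 7 genes, and without NICD replicate 2 none (adjusted p 0.173 to 0.362).

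Gastric genes rose in 6 of 10 tested members, against 6.7% of all genes, and fell in none, with a median of 1.82. Gkn1, a gastrokine of stomach surface cells, was near the floor of the scale in untreated arrays, at 4.14 and 4.05, and at 9.86 and 9.41 with NICD. Its difference of 5.54 ± 0.65 (adjusted p = 0.00094) had an adjusted p of 0.0112, 0.00463, 0.00396 and 0.0279 without untreated replicate 1, untreated replicate 2, NICD replicate 1 and NICD replicate 2, and a second probe set gave 4.18. In the other CD24lo arrays Gkn1 was at 5.75 and 8.69 with doxorubicin and at 4.17 to 4.54 in Lgr5-ablated and irradiated cells. Pgc, the gene of pepsinogen C, was at 6.25 and 6.70 untreated and at 9.67 and 9.36 with NICD, a difference of 3.04 ± 0.38 (8.24-fold, adjusted p = 0.00142, and 0.0332 without NICD replicate 2). Both genes were high in both NICD arrays and the groups lay more than 2 log2 units apart. Gkn2 rose by 4.21 ± 0.58, Cblif, the gene of gastric intrinsic factor, by 2.02 ± 0.57 and Tff2, a trefoil peptide of stomach mucus, by 1.62 ± 0.40. The other was Afp, whose product α-fetoprotein is a fetal plasma protein. Afp was at 5.16 and 9.66 in untreated replicates 1 and 2 and at 13.14 and 13.22 in the NICD arrays (5.77 ± 1.30, adjusted p = 0.0143), so that the untreated arrays differed more than untreated replicate 2 and NICD did. Other probe sets of Afp gave 4.84, 4.72 and 1.18, of which 1.18 did not pass. Atp4a and Atp4b, the acid pump genes of parietal cells, differed by 1.11 ± 0.44 and 1.26 ± 0.55 and did not pass. Of the 6 calls 3 held without untreated replicate 1, 5 without untreated replicate 2, 4 without NICD replicate 1 and 2 without NICD replicate 2, where the adjusted p ran up to 0.263.

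Pnliprp1, a lipase-related protein of the pancreas, was at 7.23 and 7.27 untreated and at 10.34 and 10.30 with NICD. The arrays of each group nearly coincided, and the difference of 3.07 ± 0.29 (8.42-fold) had an adjusted p of 9.66e-05, and of 0.00511 without NICD replicate 2. Sycn, a granule protein of pancreatic acinar cells, was at 6.88 and 7.13 untreated and at 9.35 and 8.92 with NICD, and had an adjusted p of 0.0047, and of 0.076 without NICD replicate 2. In a list of acinar genes drawn up after these values were seen, these were the 2 of 12 tested members that were called. The digestive enzyme genes Cpa1, Cela2a, Cel and Cpb1 lay between 4.27 and 5.33 in the 4 arrays and differed by -0.24 to 0.21. Erdr1, the gene of erythroid differentiation regulator 1, was at 11.58 and 11.85 untreated and at 6.61 and 6.28 with NICD. No other CD24lo array was below 9.31, and the difference was -5.27 ± 0.63 (adjusted p = 0.00094), with an adjusted p of 0.0358 without NICD replicate 2.

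**Figure D3:**
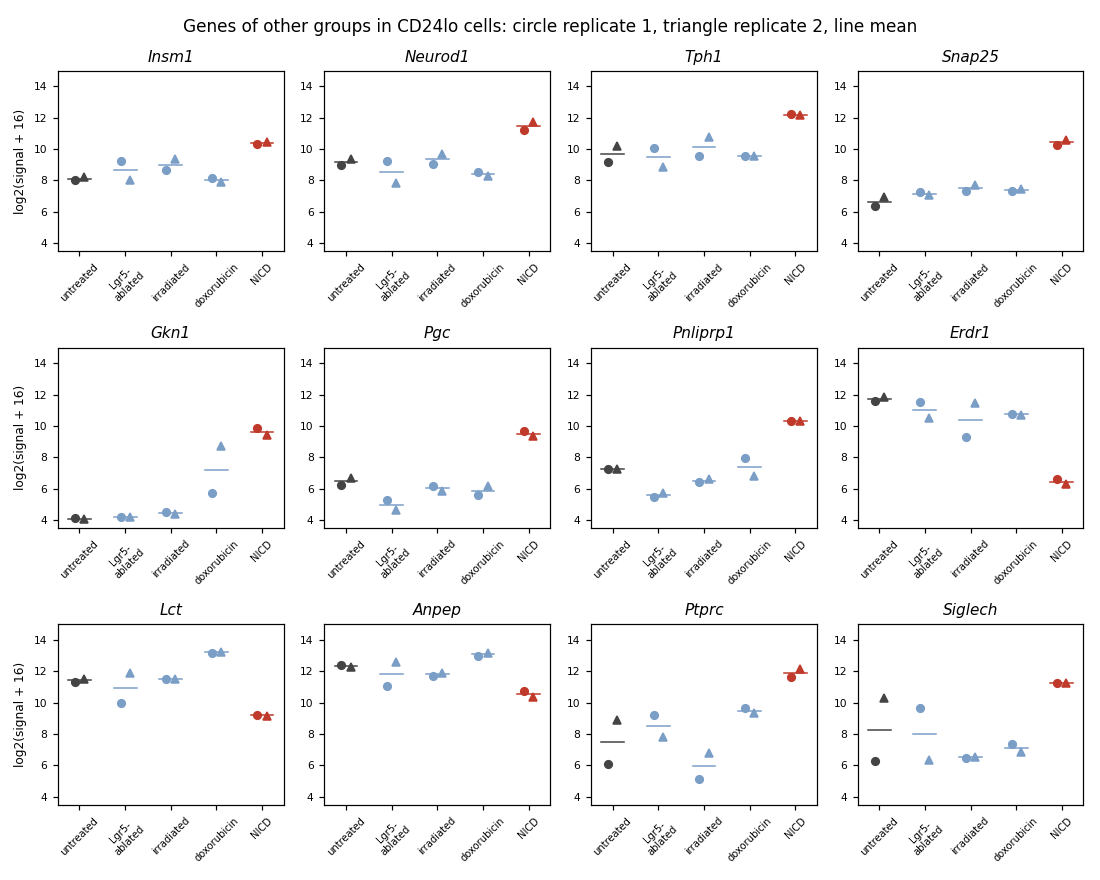
Level (log2(signal + 16), y axis) of 12 genes in the 2 arrays of each CD24lo condition (x axis), with circles for replicate 1, triangles for replicate 2 and lines for means. Gkn1, at 9.86 and 9.41, Pgc and Pnliprp1 are high and Erdr1, at 6.61 and 6.28, low in both NICD arrays, while Siglech is at 6.28 and 10.29 in the 2 untreated arrays.

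T cell and intraepithelial lymphocyte genes rose in 6 of 13 tested members (18 listed), with a median of 1.91, and myeloid genes in 6 of 9 (13 listed), with a median of 2.18, against 6.7% of all genes. The other tested members of both lists did not pass, and none fell. Of the 6 myeloid calls, 3 were genes that passed the filter on low signal only through the NICD arrays of CD24lo cells, so the share of myeloid genes called is no measure of that list. With quantile normalization 3 T cell and 4 myeloid genes were called. The summed signal of the T cell list was 1273 and 2454 in untreated, 7249 and 8811 in NICD and 1622 to 5825 in the other CD24lo arrays. That of the myeloid list was 894 and 2052 untreated, 5689 and 4870 with NICD and 599 to 1620 in the other CD24lo arrays. Both sums were highest in the 2 NICD arrays and higher in untreated replicate 2 than in untreated replicate 1. Ptprc, the gene of the pan-leukocyte protein CD45, was at 6.07 and 8.92 untreated and at 11.66 and 12.16 with NICD (4.41 ± 0.70, adjusted p = 0.0047). Mpeg1, a pore-forming protein of phagocytes, was at 6.89 and 9.30 untreated and at 11.31 and 11.26 with NICD. Untreated replicate 2 lay between untreated replicate 1 and the NICD arrays in both genes. Mcpt1 and Mcpt2, proteases of mucosal mast cells, rose by 3.71 and 3.80 and were higher in untreated replicate 1, at 6.18 and 5.45, than in replicate 2, at 4.08 and 4.39. The lymphocyte genes Klrd1, Gzmb, Cd7 and Cd8a rose by 1.91 to 2.93, although a second probe set of Cd8a gave 1.26 and did not pass. The defining T cell genes Cd3e and Cd3g lay between 4.54 and 6.64 in all 4 arrays and did not pass, and Cd3d was below the filter. Of the macrophage genes Csf1r and Adgre1 were below the filter and Cd68 differed by -0.54 ± 0.32 without passing. Of 7 tested B and plasma cell genes 1 rose, Pou2af1, by 2.03, with an adjusted p of 0.281, 0.0312, 0.0747 and 0.323 without untreated replicate 1, untreated replicate 2, NICD replicate 1 and NICD replicate 2. None of 3 stromal genes tested passed. The 1 erythroid gene of that list that was tested, Alas2, did not pass either (adjusted p = 0.518), while Hbb-b2, a globin gene outside the list that is described further on, was higher.

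Siglech, which marks plasmacytoid dendritic cells, was at 6.28 and 10.29 untreated and at 11.29 and 11.25 with NICD, and missed the threshold (2.98 ± 1.01, adjusted p = 0.0555). In the other CD24lo arrays it was at 9.67 in Lgr5-ablated replicate 1 and at 6.36 to 7.37 elsewhere. A list of genes of these cells, drawn up after the values were seen, had 9 of 18 tested members higher, 3 of them through the filter by the CD24lo NICD arrays alone, and 1 lower. Dntt, a DNA polymerase of early lymphoid cells, was higher by 4.74, Cd53 by 3.66, P2ry14 by 3.55, Spib by 3.16 and Tcf4, a transcription factor these cells require, by 1.32. Other probe sets of Tcf4 gave 0.63 to 2.10, of which 0.63 and 0.69 did not pass. The interferon factor gene Irf7 was lower. Without untreated replicate 1, 3 of the 6 T cell calls, 1 of the 6 myeloid calls and 3 of these 10 held. Without untreated replicate 2 the numbers were 4, 4 and 9, and without NICD replicate 1 they were 3, 2 and 7. Without NICD replicate 2 none held, with adjusted p from 0.0922 to 0.336. The part of such cells in the other differences was not tested.

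Over all genes 6.7% were higher and 7.72% lower, and counts of 1 or 2 members here are no result about a list. Among the remaining lists, 3 of 6 antigen-presentation genes of MHC class II rose, H2-Aa by 1.54, Ciita, their master regulator, by 1.10 and H2-Eb1 by 0.90. A second probe set of Ciita gave 0.74 and did not pass. The summed signal of the 6 genes was 5905 and 8688 untreated and 11259 and 8199 with NICD, so the groups overlapped. In the other CD24lo arrays it was 17202 and 22022 Lgr5-ablated, 14271 and 15334 with doxorubicin and 2352 and 2081 irradiated. The immediate early genes Egr3 (2.77 ± 0.52) and Egr2 (0.97 ± 0.27) rose, 2 of 16, while the median of that list was -0.30. Interferon-induced genes rose in 1 of 19 members, Iigp1 (2.97 ± 0.66), and fell in 2, Irf7 (-1.03 ± 0.26) and Oas1a (-0.72 ± 0.21). Intestinal identity factors fell in 3 of 12 members, Elf3 by 0.76 ± 0.20, Gata4 by 0.76 ± 0.23 and Cdx1 by 0.64 ± 0.20 on the log2 scale. Pan-epithelial genes fell in 3 of 13, Elf3, Krt19 (-0.99 ± 0.29) and Lgals4 (-0.75 ± 0.19), and rose in 1, Tspan8 (0.88 ± 0.22). Other probe sets of Tspan8 gave 0.31 to 0.83, of which only 0.83 passed. Ern2, a stress sensor of secretory epithelium, and Atf4 fell among 17 genes of the unfolded protein response (-1.02 ± 0.33 and -0.72 ± 0.17), although a second probe set of Atf4 gave 0.28 and did not pass. Serpini1 rose among 7 genes of Mist1-linked vesicles, by 1.97 ± 0.42, and Clu alone among 6 tested epithelial repair genes. None of 14 tested p53 targets passed by limma, with 4 at an unadjusted p below 0.05 and a median of 0.31. The calls named in these lists held in 4 of 18 genes without untreated replicate 1, in 7 without untreated replicate 2, in 13 without NICD replicate 1 and in none without NICD replicate 2, where the adjusted p ran from 0.138 to 0.385.

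**Figure D4:**
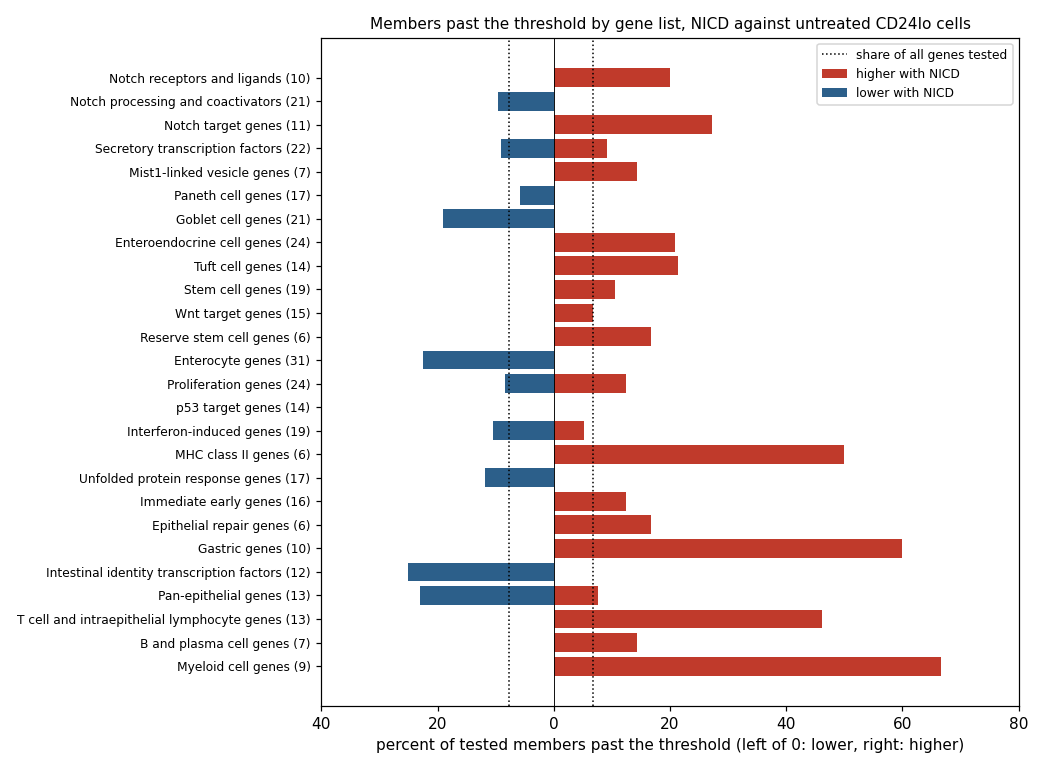
Percent of the tested members of each list (number tested in parentheses, lists with at least 6) that were past the threshold, to the right of 0 for higher and to the left for lower with NICD. The dotted lines mark the 6.7% and 7.72% of all 11854 genes called higher and lower, and the shares describe only the members that passed the filter on low signal, such as 9 of 13 listed myeloid and 10 of 12 listed gastric genes.

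The next 5 lists were grouped by symbol after the values were seen, so their counts only describe, and in each of them most tested members did not pass. Against 7.72% lower over all genes, ribosomal protein genes were lower in 16 of 37 tested members, with a median of -0.51, and mitochondrial ribosomal protein genes in 29 of 76, with 1 higher and a median of -0.55. Respiratory chain genes were lower in 36 of 81, with a median of -0.53, and proteasome genes in 11 of 38, with a median of -0.37. The grouping by symbol also took in the Ndufaf genes and Psmc3ip, which do not encode subunits of these complexes. Zinc finger genes named Zfp were higher in 18 of 236, a share near the 6.7% of all genes and so no result about that family, and lower in 3, with a median of 0.34. By mean level over the arrays, the dimmest 25% of genes had a median difference of 0.40, with 9.82% higher and 0.978% lower, and the brightest 25% had -0.09, with 5.33% higher and 13% lower. Levels of some control probes differed between the groups. The probe set for the 3' end of 18S ribosomal RNA read 10031 and 9535 untreated and 3872 and 3862 with NICD, and that of Gapdh 12034 and 14541 against 8144 and 7196. The 3' to 5' ratio of actin was 1.38 and 1.3 untreated and 1.38 and 1.5 with NICD, and that of Gapdh 1.07 and 1.01 against 0.95 and 0.919. The part of signal quality in these differences was not tested. Of the 16, 30 and 36 calls of the ribosomal, mitochondrial ribosomal and respiratory families, 6, 6 and 6 held without untreated replicate 1, 4, 3 and 13 without untreated replicate 2, 14, 26 and 27 without NICD replicate 1, and 0 of each without NICD replicate 2 by limma. Of the 11 proteasome and 21 Zfp calls, 6 and 4 held without untreated replicate 1, 4 and 8 without untreated replicate 2, 10 and 16 without NICD replicate 1 and 0 of either without NICD replicate 2.

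Outside these lists, the genes with the largest rises were led by Hbb-b2, an adult β-globin gene, at 4.38 and 4.15 untreated and 8.51 and 8.22 with NICD. Ccr2, a chemokine receptor of monocytes, was at 4.06 and 5.74 untreated and 8.73 and 8.82 with NICD, and Pla2g7, a secreted phospholipase, at 5.45 and 5.63 untreated and 9.38 and 9.04 with NICD. The groups lay apart in all 3, by 4.10, 3.87 and 3.67, and the cytokine receptor gene Il7r and the sialyltransferase gene St8sia4 rose by 3.58 and 3.59. On the lower side the peptide transporter gene Slc15a2 was at 8.27 and 10.16 untreated and at 5.20 and 4.19 with NICD, a difference of -4.52 ± 1.06 (adjusted p = 0.0167). Slc5a11, a sodium-coupled transporter, was at 8.71 and 8.21 untreated and 5.25 and 6.15 with NICD. Both NICD arrays of these genes were more than 2 log2 units below both untreated arrays. Amdhd2 fell by 2.32, the folate transporter gene Slc46a1 by 2.13 and Slc51b, a subunit of a bile acid transporter, by 2.11 on the log2 scale. Of these 10 genes, 6 kept the call without untreated replicate 1, 9 without untreated replicate 2, 8 without NICD replicate 1 and none without NICD replicate 2 (adjusted p 0.128 to 0.241).

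NICD CD24lo cells were then compared with the mean of the 3 other treated CD24lo groups, 6 arrays that are not in the comparison above, although the NICD arrays are the same. This difference passed in 1985 genes, 16.7% of those tested, with 1145 higher (9.66%) and 840 lower (7.09%), and in 99 without NICD replicate 2. Nrarp was at 9.57, 9.84 and 9.80 on average in Lgr5-ablated, irradiated and doxorubicin arrays, and the difference to NICD was 2.20 ± 0.24 (adjusted p = 5.11e-05). Heyl was higher with NICD by 2.27 ± 0.35 (adjusted p = 0.000973). Notch3, at means of 6.72, 7.87 and 8.49 in the other groups, differed by 0.62 ± 0.30 and did not pass. Of the 11 Notch targets 6 were higher, among them Olfm4 by 3.11, with means of 12.13, 9.62 and 10.15 in those groups. Nrarp, Heyl and Olfm4 were also called without NICD replicate 2 (adjusted p 0.0102, 0.0353 and 0.000677).

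In the same comparison stem cell genes were higher in 12 of 19 members, with Lgr5 at 3.76 ± 0.46 (adjusted p = 0.000179, and 0.0104 without NICD replicate 2), and proliferation genes in 13 of 24. Enterocyte genes were lower in 26 of 31 and p53 targets in 7 of 14, against 7.09% of all genes. The summed signal of the enterocyte genes was 68348 and 62419 with NICD and 131123 and 104583 untreated. It was 79930 and 171299 in Lgr5-ablated, 130341 and 130344 in irradiated and 238262 and 265436 in doxorubicin arrays. The summed signal of the p53 targets was 60912 and 49765 in irradiated and 30549 and 32150 in doxorubicin arrays, 18367 and 18589 in Lgr5-ablated arrays, and 20762 and 20866 with NICD beside 20848 and 20132 untreated. The p53 sums were thus high in the irradiated and doxorubicin arrays and near the untreated ones with NICD. Stem cell sums were 41932 and 47424 with NICD, 31457 and 29039 untreated and 35138 and 23421 Lgr5-ablated. They were 15861 and 17779 irradiated and 12702 and 12140 with doxorubicin. Proliferation sums were 46188 and 45785 with NICD, 43471 and 52737 untreated and 51433 and 37087 Lgr5-ablated. They were 27647 and 23024 irradiated and 21959 and 23509 with doxorubicin. The counts thus rest on levels in the other treated groups as well as with NICD. Gastric genes were higher in 7 of 10, enteroendocrine genes in 9 of 24 and myeloid genes in 6 of 9, against 9.66% of all genes. Only 6 of the 9 tested myeloid genes passed the filter on low signal without the NICD arrays of CD24lo cells. The myeloid share is thus no measure of that list here either. Without NICD replicate 2, 5 of the 12 stem cell, 2 of the 13 proliferation, 5 of the 26 enterocyte, 0 of the 7 p53, 5 of the 7 gastric, 0 of the 9 enteroendocrine and 1 of the 6 myeloid calls held. The largest differences were those of Igk-V21, an antibody gene, at 5.04, Lifr at 4.83, Csf2rb2 at 4.73, Dntt at 4.72 and Gkn1 at 4.35. On the lower side they were those of Erdr1 at -4.27 and of the transporter genes Slc13a2, Slc5a4a, Slc5a11 and Slc2a2, from -4.12 to -3.53. Of these 10, Igk-V21, Csf2rb2, Dntt and Slc2a2 lost the call without NICD replicate 2 (adjusted p 0.0552 to 0.0803).

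The NICD effect, NICD minus untreated, was also set against that in CD24hi cells, which shares the 4 CD24lo arrays. The effects differed in 314 genes, 2.65% of those tested, with 194 higher in CD24hi (1.64%) and 120 lower (1.01%). This number depended on single arrays. By limma it was 0 without CD24lo NICD replicate 2 (1850 at an unadjusted p below 0.05), 5 without CD24hi NICD replicate 2, 10 and 21 without CD24hi untreated replicates 1 and 2, 38 and 27 without CD24lo untreated replicates 1 and 2, 753 without CD24lo NICD replicate 1 and 2622 without CD24hi NICD replicate 1. CD24hi NICD replicate 2 stood apart in its control probes, with an actin 3' to 5' ratio of 1.03 against 1.3 to 1.58 on the other sorted arrays.

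Enterocyte genes differed between the fractions in 8 of 31 members, against 2.65% of all genes, all with the more positive effect in CD24hi cells. Apoa1 was at 12.87 and 12.89 untreated and at 11.53 and 11.09 with NICD in CD24lo cells, and at 10.21 and 10.23 and 11.68 and 12.59 in CD24hi cells. It was lower with NICD in the first and higher in the second, and the effects differed by 3.48 ± 0.46 (adjusted p = 0.00412, and 0.0573 without CD24lo NICD replicate 2). Lct had effects of -2.24 and 1.51 and Apoa4 of -1.80 and 2.25 in CD24lo and CD24hi cells. Tuft genes differed in 5 of 14 members, against the same 2.65%. Of these Dclk1 stayed between 5.28 and 6.19 in the CD24lo arrays and was at 8.75 and 7.40 untreated and at 11.10 and 11.07 with NICD in CD24hi arrays, and Trpm5 had effects of -0.18 and 2.94. Enteroendocrine genes differed in 3 of 24 members, against 2.65% of all genes. All 24 had the more positive effect in CD24hi cells, with a median difference between the effects of 1.61. Ccr2 had effects of 3.87 and 0.14. Of the 8 enterocyte and 5 tuft calls, 0 of either held without CD24lo NICD replicate 2, 1 and 0 without CD24hi NICD replicate 2, 4 and 2 without CD24lo untreated replicate 1, 3 and 0 without CD24lo untreated replicate 2, and 2 and 0 without either CD24hi untreated array. Nrarp, Heyl, Notch3, Gkn1, Pgc, Pnliprp1 and Erdr1 did not pass this test. The differences between their effects ran from -1.06 ± 0.41 for Nrarp to 1.65 ± 0.89 for Erdr1, which does not show that the effects were alike.

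**Figure D5:**
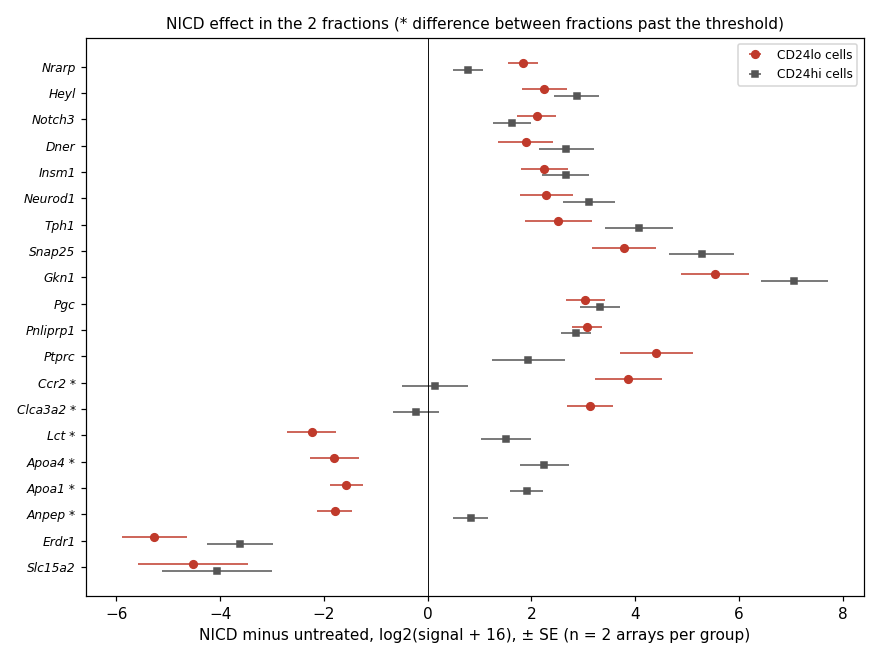
NICD minus untreated (x axis, log2(signal + 16), points ± SE, n = 2 arrays per group) in CD24lo (circles) and CD24hi cells (squares) for 20 genes, with a star where the effects differed past the threshold. Gkn1 and Erdr1 lie on the same side of 0 in both fractions, while Lct lies at -2.24 in CD24lo and 1.51 in CD24hi cells.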

How the data were processed

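The deposited table holds MAS5 signal intensities of Affymetrix mouse arrays on a linear scale, per the submitters' processing notes, which give no version. On every array the mean without the lowest and highest 2 percent of probe sets was 500. Of 45101 probe sets, 34958 had one gene symbol in GEO's platform annotation, 932 several and 9211 none. Signals became log2(signal + 16), with no further normalization. Probe sets above their array's median in at least 2 of the 20 sorted arrays were kept (22531), and the one with the highest mean stood for its gene (11854 genes). limma 3.58.1 in R 4.3.3 fitted the 10 group means (10 residual degrees of freedom) with a mean-variance trend and Benjamini-Hochberg adjustment, and was tested on simulated data. The number of arrays limits the precision.

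Genes were named from the Notch and secretory factors and from up to 5 called members of each list by size. Others came from the 15 called with the largest change in each direction and from those called in every fit that left out an array. Not all of these are named. Apoa1, Tff2, sex-linked genes, members of the lists drawn up later and some members that did not pass were chosen after their values were seen. Members and lists were chosen with earlier results of these data known. Alternatives covered the pseudocount, scaling, filter, probe set choice, variance model, replicate block, arrays fitted and each array left out.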

Additional observations from a re-analysis of the deposited data

Results flagged for a closer look

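The NICD effect differed between CD24hi and CD24lo cells, by an interaction test in limma, in 314 genes. In each of the following the value is the effect in CD24hi minus that in CD24lo cells on the log2 scale, and none of these differences was followed by a test of its cause. Among the genes with the largest values it was 4.70 for Dgki (effects of -0.88 in CD24lo and 3.83 in CD24hi cells), 4.61 for Ighg3 (-0.56 and 4.05) and 4.07 for G6pc (-1.32 and 2.75). On the other side it was -3.73 for Ccr2 (3.87 and 0.14), -3.35 for Clca3a2 (3.13 and -0.22), -2.88 for Ripor2 (1.94 and -0.94), -2.76 for Tubgcp5 (1.40 and -1.36) and -2.64 for Casp8ap2 (1.96 and -0.68). Of the genes of digestion and absorption it was 4.05 for Apoa4, 3.75 for Lct, 3.48 for Apoa1 and 2.61 for Anpep, and it was 2.68 for Amdhd2. The hormone genes Cck, Gip and Sct had 3.15, 2.25 and 2.16, and the tuft genes Trpm5 and Dclk1 had 3.12 and 2.46. The epithelial genes Krt19 and Lgals4 had 1.60 and 1.15, and Mcm4 had -1.58. The adjusted p of these genes lay between 0.00412 (Apoa1) and 0.0498 (Krt19). No gene passed this test without CD24lo NICD replicate 2, where 1850 genes had an unadjusted p below 0.05. All 314 differences kept their sign there, with a median size of 1.47 against 1.60 with all arrays and a median adjusted p of 0.221.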

How the results depend on the processing

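All 3 comparisons were recomputed under each alternative. NICD against untreated kept its count of calls within 1.5 times, between 1403 and 1823, under the other pseudocounts, scalings, filters, probe set rule, variance models and the replicate block (1654), but called 861 genes in the fit to the compared arrays only, where fewer arrays estimate the spread. Left out of the shared spread alone, a step chosen after seeing the data, CD24hi NICD replicate 2 gave 2276 genes. The comparison called 4 to 1741 genes with each CD24lo array left out. The comparison with the other treated groups lay between 1759 and 2135 under the first of these settings, with 1956 in the fit to the compared arrays only and 2352 with that step, and between 99 and 2477 with each array left out. The difference between the fractions called 56 genes with no filter, 42 with no trend, 199 with the replicate block and 74 in the fit to the compared arrays only, and 0 to 2622 with each array left out (for 0, 1850 at an unadjusted p below 0.05). The cause was not tested. Replicate numbers were not used to pair the samples in the main fit. The deviations of same-numbered NICD and untreated CD24lo arrays correlated at -0.0196. Those of the 2 fractions correlated at 0.344 untreated, 0.385 Lgr5-ablated, 0.0677 irradiated, -0.149 with NICD and -0.0975 with doxorubicin. These values do not settle whether same-numbered samples belong together. A block within each condition, chosen after seeing the data, gave 392 genes for the difference between the fractions. Of the genes named, those that changed sign had not passed the test, apart from Clca1 (0.14) and Mcm3 (-0.17) with the mean of the gene's probe sets, which also turned Jag1 (0.21), Mcm2 (-0.11) and Trpm5 (0.00). Quantile normalization turned Alas2 (-0.08), Cd3e (0.00), Cela2a (-0.35), Cpa1 (-0.14), Hes1 (-0.26) and Sh2d6 (-0.16), and centring on the 75th percentile turned Gfi1 (-0.01). With each array left out the sign varied for Cd24a (-0.01 to 0.12), Cd3e (-0.07 to 1.04), Cel (-0.43 to 0.01), Cela2a (-0.25 to 0.32), Cpa1 (0.00 to 0.41), Cpb1 (-0.77 to 0.29), Gcg (-0.05 to 0.97), Gfi1 (-0.15 to 0.20), Hes1 (-0.06 to 0.26), Myc (-0.02 to 0.33), Notch1 (-0.16 to 0.55), Trpm5 (-0.75 to 0.38) and Xist (-5.86 to 1.88).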

Other observations

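One array of the series was of whole intestine and belongs to no group of the comparison. On it Gkn1 was at 4.10 and Pnliprp1 at 5.94, below both NICD arrays of CD24lo cells, and Erdr1 at 9.05, above both. Nrarp was at 8.25 and Heyl at 6.99. Afp was at 9.63 and Pgc at 5.92. The leukocyte gene Ptprc was at 11.01 and Siglech at 5.26, and the enterocyte genes Lct and Anpep were at 14.10 and 14.53. With 1 array these values have no replicate error.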
